A study of Mus musculus with 23 samples.

Results

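The cell cycle genes followed here were 52 genes, namely 11 genes of G1, 13 genes of S phase and 28 mitotic genes. They were listed for their function, and each was found on the arrays through the RefSeq accession of its probes, taking the probe with the highest mean level where a gene had several. All 52 were among the 20145 genes matched in this way, and 50 of them were among the 15202 genes that reached a log2 intensity of 6.5 on at least 1 array and were tested. The members left untested were Ccne2, an E-type cyclin that was well above background on 0 of 23 arrays, and Aurkb, a mitotic kinase that was well above background on 2 arrays. The G1 kinase Cdk6 was tested but dim, with a log2 intensity between 5.002 and 6.89.

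The study asked how RUNX1-ETO, the fusion protein of a translocation found in acute myeloid leukaemia, acts on cells at successive stages of blood formation. All cells came from the A2lox mouse embryonic stem cell line, labelled as strain C57BL/6, which carries an HA-tagged human RUNX1-ETO under a TET-responsive promoter that doxycycline (Dox) switches on and which keeps its own Runx1 genes. The early stages were sorted from blast culture as haemogenic endothelium (HE, KIT+ Tie2+ CD41-), as cells that acquire CD41 during the endothelial-to-haematopoietic transition (HE2, KIT+ Tie2+ CD41+) and as CD41+ KIT+ Tie2- progenitors. They were either uninduced or treated with 0.1 µg/ml Dox from day 1 of the culture. Myeloid progenitors were grown from sorted KIT+ CD41+ cells in expansion medium with cytokines, without Dox or with Dox for 12 h. Each group was measured on 3 arrays, except that CD41+ KIT+ Tie2- progenitors had 2 arrays in either condition. A further array of uninduced progenitors was normalized with the others and kept out of the fit. No array of Dox-treated cells that lack the transgene was analysed here, so an effect of Dox itself and an effect of RUNX1-ETO cannot be told apart. The transgene sits in 1 cell line, and the time in Dox and the culture of the myeloid progenitors differ from those of the early stages.

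A cell commits to division in G1, when D-type cyclins with Cdk4 or Cdk6 and E-type cyclins with Cdk2 inactivate the retinoblastoma protein and release the activating E2F factors. The E2F factors then drive the genes that license and fire replication origins, among them the MCM helicase subunits, Cdc6 and Cdt1. The mitotic genes follow later under the DREAM, B-MYB and FOXM1 complexes, and in early blood formation the rate of division changes as endothelial cells become round haematopoietic cells.

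On the 23 arrays between 48.8% and 78.4% of the spots were well above background, and 0 spots were saturated. Runx1t1, the mouse gene of the ETO moiety, was higher with Dox in the group mean at each stage, at 12.05 against 10.81 in HE and at 11.67 against 7.71 in progenitors on the log2 scale. The RNA of the surface markers followed the sort in part. Itga2b, which encodes CD41, had a mean of 10.703 in uninduced HE, which was sorted as CD41-, and of 7.49 in induced HE. Tek, which encodes Tie2, had a mean of 8.67 in uninduced and 11.10 in induced progenitors, although both were sorted as Tie2-. The mean of 5 endothelial markers per array lay between 11.3 and 12.3 in uninduced HE2 against 12.9 to 13.4 with Dox, and between 9.83 and 10.6 in uninduced myeloid progenitors against 12.02 to 12.34 with Dox. In HE the same mean lay between 12.2 and 13.7 without Dox and between 12.5 and 13.4 with Dox, and the mean of 5 haematopoietic markers in HE2 lay between 9.45 and 9.80 without Dox and between 8.35 and 8.81 with Dox. In HE, cardiac and smooth muscle markers were lower with Dox, at 9.85 to 10.12 against 10.5 to 11.3, and erythroid markers were higher, at 8.88 to 9.74 against 8.47 to 8.53. In HE2 the cardiac and smooth muscle markers lay between 8.65 and 8.93 with Dox against 9.60 to 10.57, the myeloid markers between 8.17 and 8.67 against 9.10 to 9.87, and the erythroid markers between 10.37 and 10.88 against 9.47 to 10.32. In myeloid progenitors the haematopoietic markers lay between 10.06 and 10.46 with Dox against 10.74 to 11.42, the myeloid markers between 9.79 and 10.04 against 10.38 to 10.83, the erythroid markers between 14.73 and 15.21 against 15.27 to 15.70, and the cardiac and smooth muscle markers between 8.12 and 8.43 against 7.32 to 7.75. In progenitors the endothelial markers lay between 11.66 and 11.86 with Dox against 10.25 to 10.32, the erythroid markers between 12.83 and 13.24 against 11.73 to 12.11, the haematopoietic markers between 10.25 and 10.60 against 11.37 to 11.49, and the myeloid markers between 9.48 and 9.97 against 10.64 to 10.96. These values are means of each list per array. The part that these markers have in the changes of the cell cycle genes was not tested. In such bulk samples, fewer dividing cells and less RNA per dividing cell cannot be told apart. On 3 arrays at least 5 members lay more than 1 log2 unit below the mean of the other arrays of the group, namely uninduced HE array 2 with 6 members, uninduced HE2 array 2 with 5 and induced HE2 array 3 with 10. In the other direction, 7 members lay more than 1 log2 unit above that mean on uninduced HE array 3 and 6 on induced HE2 array 2. Results on HE and HE2 are also given without the 3 low arrays, which were picked by the values of the members themselves. The high arrays were left out only singly.

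With Dox, cell cycle genes of S phase and mitosis were lower in HE, HE2 and myeloid progenitors, and in CD41+ KIT+ Tie2- progenitors their median change was near that of all genes. The log2 change was negative for 48 of 50 members in HE, 48 in HE2, 46 in myeloid progenitors and 31 in progenitors. The median change of the members was -0.63 for HE, -0.56 for HE2 and -0.53 for myeloid progenitors, where the median of all genes tested was -0.01, -0.03 and -0.02, and it was -0.12 for progenitors, where all genes had -0.04. At an adjusted P of at most 0.05 in limma, 22 members were downregulated in HE against 6.62% of all genes, 16 in HE2 against 6.76%, 1 in progenitors against 1.48% and 10 in myeloid progenitors against 4.3%. When the arrays of each stage were fitted on their own, 33 were downregulated in myeloid progenitors, 4 in HE, 6 in HE2 and 0 in progenitors, against 12.4%, 2.05%, 3.43% and 0.0329% of all genes, so that the order of the stages by this count depended on the fit. In the fit of all stages, 0 members were upregulated at the same limit in HE, HE2 and myeloid progenitors, where 9.03%, 10.4% and 9.49% of all genes were, and 1 member was upregulated in progenitors, where 4.05% were. Most changes were small. At the threshold of the study, an unadjusted P of at most 0.001 and at least a 2-fold change, 4 members were called in HE and 0 in HE2, against 7.09% and 7.22% of all genes. By the same threshold 1 member was called in progenitors and 1 in myeloid progenitors, against 3.73% and 6.31%.

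**Figure D1:**
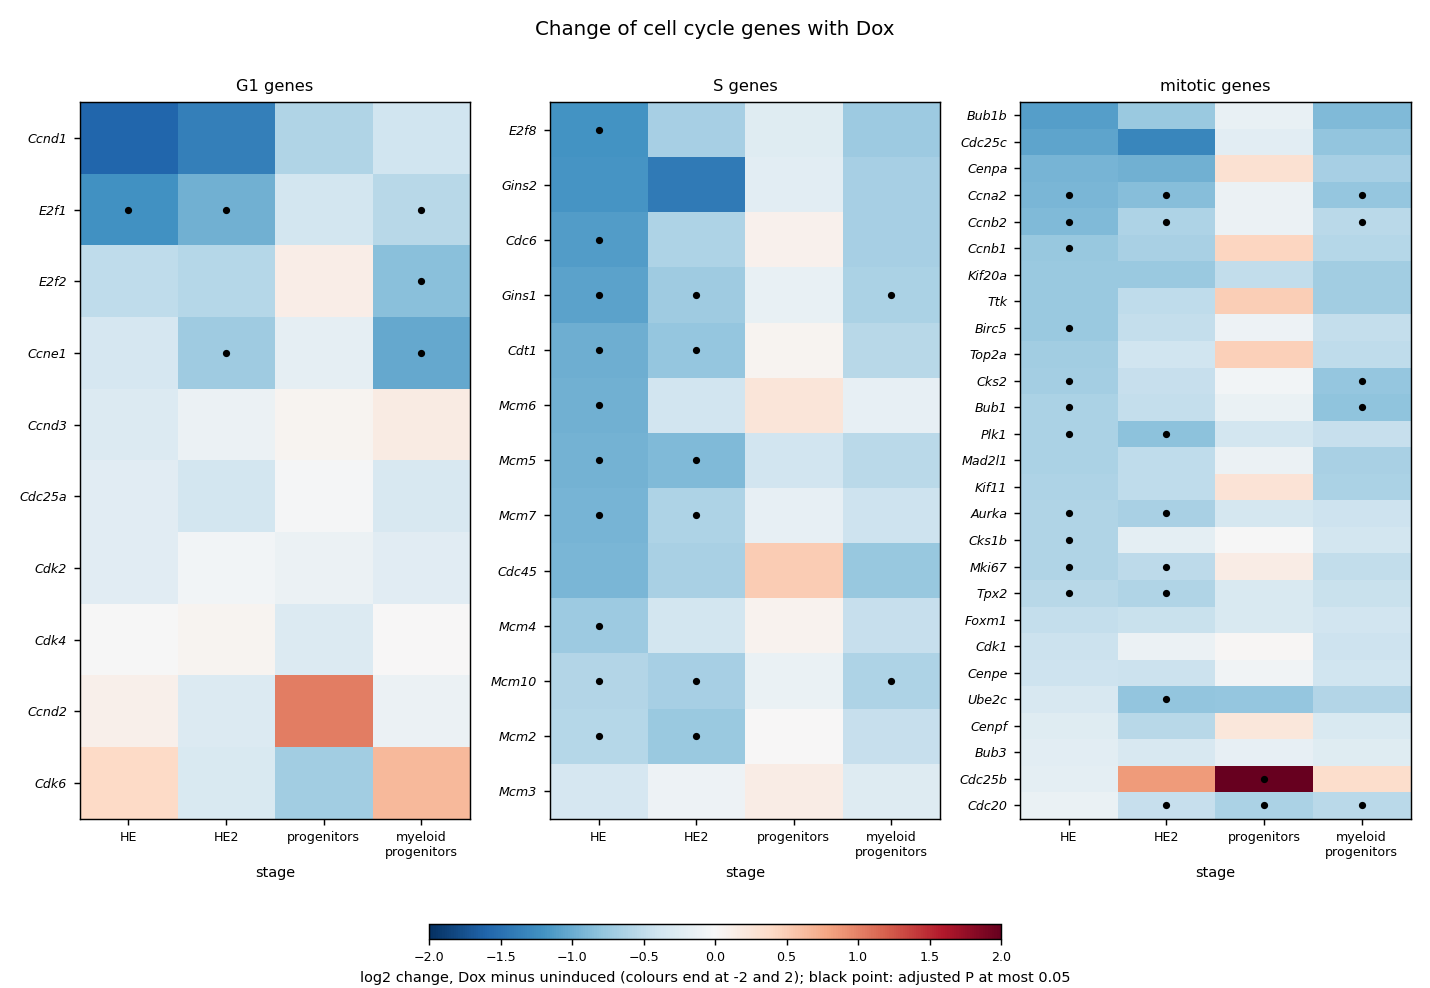
Log2 change with Dox (induced minus uninduced) of the 50 cell cycle genes tested, 1 row per gene and 1 column per stage, in the G1, S and mitotic groups, with colours ending at -2 and 2. Black points mark an adjusted P of at most 0.05, which 22 members reached in HE, 16 in HE2, 2 in progenitors (Cdc20 lower and Cdc25b higher) and 10 in myeloid progenitors.

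The 3 groups of genes differed in how many members were called and in their medians. Of the S genes 10 of 13 were downregulated at the adjusted P in HE, 6 in HE2, 2 in myeloid progenitors and 0 in progenitors, and their median changes in this order of stages were -0.95, -0.66, -0.56 and 0.01. Of the mitotic genes 11 of 27 were downregulated in HE, 8 in HE2, 5 in myeloid progenitors and 1 in progenitors, with medians of -0.63, -0.51, -0.54 and -0.12. Of the G1 genes, in the same order of stages, 1, 2, 3 and 0 of 10 were downregulated, with medians of -0.25, -0.34, -0.27 and -0.15. Between the 3 groups of genes no test was made. In HE, HE2 and myeloid progenitors alike the change was negative for 13 of 13 S genes, 26 of 27 mitotic genes and 6 of 10 G1 genes. The 5 members downregulated at the adjusted P in all 3 of these stages were E2f1, Mcm10, Gins1, Ccna2 and Ccnb2, and a further 12 were downregulated in 2 of them.

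**Figure D2:**
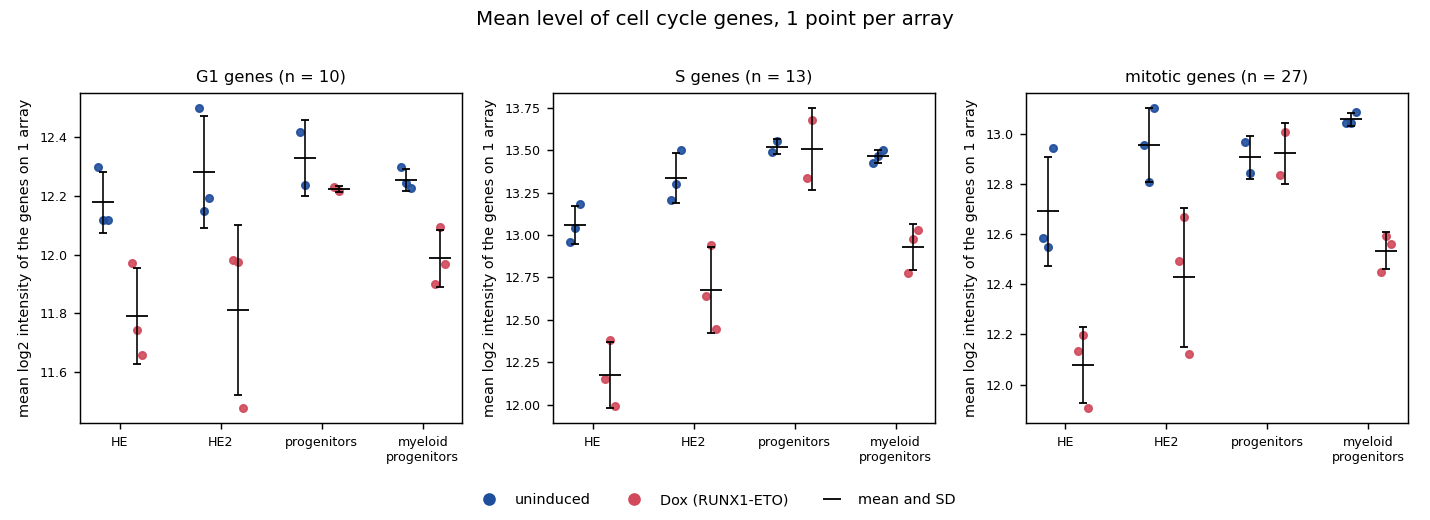
Mean log2 intensity of the G1, S and mitotic genes on each array (1 point per array), with the mean and SD of each group of arrays, by stage and by Dox. The induced arrays lay below the uninduced arrays for the G1, S and mitotic genes alike in HE, HE2 and myeloid progenitors. In progenitors the points of both conditions overlapped for the S and mitotic genes. The induced G1 points there, at 12.23 and 12.22, lay just below the uninduced ones at 12.42 and 12.24.

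Single arrays carried these counts to a degree. In HE the number downregulated at the adjusted P was 9 without induced array 3, 13 without uninduced array 2 (11 of them among the 22), and 14 without either uninduced array 3 (13 among the 22) or induced array 1 (14 among the 22). It was 18 without the low arrays, with 11 among the 22. In HE2 it was 8 without uninduced array 2 (7 among the 16), 8 without induced array 3, 9 without uninduced array 3, and 6 without the 2 low arrays of that stage (5 among the 16). In myeloid progenitors it was 6 without uninduced array 1 or 3 and 5 without induced array 1. Leaving out an array also lowers the number of arrays behind the test. Without the low arrays the change was negative for 48 members in HE and 46 in HE2. These counts are no separate support, because the low arrays were picked by the values of the members. In HE the array left out was an uninduced one, which by itself moves the change of its low members downward. The arrays sat on 3 slides. For HE and HE2, slide 1 held 1 induced and 2 uninduced arrays of each stage, and slide 2 held 2 and 1. For progenitors, slide 1 held 1 array of each condition. In HE 43 of 50 members were lower with Dox on slide 1 and 48 on slide 2, in HE2 45 and 47, and in progenitors 36 on slide 1. All members share these few arrays, so the counts are not independent observations. All myeloid progenitor arrays were on slide 3. The induced values lay wholly below the uninduced values for 25 members in HE and 26 in HE2, against 11% and 15.2% of all genes, and for 12 in progenitors and 42 in myeloid progenitors, against 26.4% and 22.7%.

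Promoter motifs were searched because most genes of a group had changes of the same sign with Dox. RefSeq promoters (GRCm38.p6, 250 bases before to 50 after the start) were listed for 40 of the 52 members, in 44 windows, and were searched on both strands for 4 motifs. The E2F motif TTTNNCGC was in 54.5% of the windows of S genes, 40% of those of G1 genes and 13% of those of mitotic genes, against 5.17% of all 32851 windows. The CHR motif TTTGAA, the element bound by the DREAM complex, was in 69.6% of mitotic windows, 27.3% of S and 10% of G1 windows, against 17.9% of all. The CCAAT box was in 91.3% of mitotic, 81.8% of S and 50% of G1 windows, against 37.4% of all, and the RUNX motif TGTGGT was in 8.7%, 18.2% and 10%, against 16.8%. Among the members only 1 pair of matches overlapped, of a CCAAT box and an E2F motif. These shares are a description and were not tested. Of the members past the threshold with Dox or between uninduced stages, E2f1 and Ccne1 held 0 matches to the 4 motifs in their windows, and Gins1 was not listed. Each window depends on the listed start, which was not checked against the start used in these cells. A window with 0 matches, such as that of E2f1, therefore does not show that the promoter of the gene lacks the motif. The other members of this set are printed below to show which motifs their windows held. The 250 bases before the start are given 5′ to 3′ on the strand of the gene, and capitals mark a motif or its reverse complement. They are Cdc6 (chr11:98907901-98908150, plus strand) with an E2F motif starting 138 bases before the start, E2f8 (chr7:48881597-48881846, minus strand) with a CCAAT box and a CHR motif, Ccnb1 (chr13:100786487-100786736, minus strand) with 2 CCAAT boxes, Cdc25b (chr2:131186698-131186947, plus strand) with 1 CCAAT box, and Cdk4 (chr10:127063285-127063534, plus strand) with 2 RUNX motifs.
Cdc6: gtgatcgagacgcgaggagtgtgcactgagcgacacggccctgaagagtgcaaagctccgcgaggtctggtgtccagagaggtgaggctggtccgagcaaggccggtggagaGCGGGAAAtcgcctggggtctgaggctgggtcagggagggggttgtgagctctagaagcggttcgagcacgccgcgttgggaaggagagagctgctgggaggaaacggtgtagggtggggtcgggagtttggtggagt
E2f8: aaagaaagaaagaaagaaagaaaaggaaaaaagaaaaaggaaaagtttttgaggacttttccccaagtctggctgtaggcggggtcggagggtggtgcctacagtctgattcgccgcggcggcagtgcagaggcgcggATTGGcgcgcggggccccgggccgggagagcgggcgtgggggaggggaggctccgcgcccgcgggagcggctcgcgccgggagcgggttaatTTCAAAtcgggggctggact
Ccnb1: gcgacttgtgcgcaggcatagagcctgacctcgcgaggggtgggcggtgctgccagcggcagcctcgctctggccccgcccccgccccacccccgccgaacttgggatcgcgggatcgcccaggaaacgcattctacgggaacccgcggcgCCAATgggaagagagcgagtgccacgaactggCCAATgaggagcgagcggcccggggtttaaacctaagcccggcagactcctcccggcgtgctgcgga
Cdc25b: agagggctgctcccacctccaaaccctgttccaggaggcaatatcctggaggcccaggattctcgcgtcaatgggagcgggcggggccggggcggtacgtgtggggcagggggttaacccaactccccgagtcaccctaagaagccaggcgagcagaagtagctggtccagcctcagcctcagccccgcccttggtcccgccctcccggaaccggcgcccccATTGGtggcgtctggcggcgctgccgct
Cdk4: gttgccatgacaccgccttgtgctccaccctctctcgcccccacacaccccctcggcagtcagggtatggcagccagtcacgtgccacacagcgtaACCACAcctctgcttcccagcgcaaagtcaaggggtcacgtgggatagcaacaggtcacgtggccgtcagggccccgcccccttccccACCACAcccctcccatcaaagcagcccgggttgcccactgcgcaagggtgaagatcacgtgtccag

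Among the G1 genes, E2f1 was the most clearly downregulated. E2f1 encodes an activating E2F factor. Its log2 intensity was 11.57, 11.82 and 11.56 on the uninduced HE arrays and 10.13, 10.73 and 10.44 on the induced ones. In HE2 it was 11.85, 11.90 and 11.96 against 10.77, 10.96 and 11.11 with Dox. All induced arrays lay below all uninduced arrays in both stages. The log2 change was -1.21 ± 0.18 (SE) in HE (limma, adjusted P = 0.000105) and -0.96 ± 0.18 in HE2 (adjusted P = 0.00104), and E2f1 stayed past the threshold in HE in 19 of 19 alternative analyses. In progenitors its level was 12.36 and 12.25 against 11.70 and 12.17, and in myeloid progenitors it was 11.99, 11.63 and 11.79 against 11.12, 11.47 and 11.13. The groups did not overlap here either, and the change was -0.37 ± 0.22 in progenitors (adjusted P = 0.365) and -0.56 ± 0.18 in myeloid progenitors (adjusted P = 0.0431). E2f2, its close relative, was downregulated in myeloid progenitors by a log2 change of -0.84 ± 0.20 (adjusted P = 0.00843), whereas its changes of -0.51 in HE and -0.57 in HE2 did not pass.

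Ccne1, the E-type cyclin that partners Cdk2, fell most in myeloid progenitors. Its log2 intensity there was 13.34, 13.80 and 13.98 without Dox and 12.46, 12.73 and 12.86 with Dox. In HE it was 12.49, 12.87 and 12.20 against 12.37, 12.43 and 11.75, and in HE2 13.07, 13.12 and 13.14 against 12.42, 12.62 and 12.15. In progenitors it was 13.27 and 13.03 against 12.96 and 12.97. The groups overlapped in HE only. The log2 change was -1.02 ± 0.22 in myeloid progenitors (limma, adjusted P = 0.00327) and -0.71 ± 0.22 in HE2 (adjusted P = 0.0295). Without uninduced array 2 or 3 or induced array 1, Ccne1 missed the threshold in myeloid progenitors, with log2 changes of -0.98, -0.88 and -0.91, and it was past it in 12 of 18 alternatives.

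Cdk4, the G1 kinase of the D-type cyclins, passed neither the threshold nor the adjusted P for Dox in any stage. On the uninduced arrays its log2 intensity was 15.96, 16.08 and 15.94 in HE, 15.99, 16.16 and 15.96 in HE2, and 15.93 and 15.90 in progenitors. On the induced arrays it was 16.004, 15.99 and 15.96 in HE, 15.90, 16.20 and 16.17 in HE2, and 15.90 and 15.40 in progenitors. In myeloid progenitors it was lower in both conditions, at 14.78, 14.85 and 14.83 without Dox and at 14.86, 14.85 and 14.77 with Dox. The difference with Dox was -0.01 in HE (95% interval -0.31 to 0.29), 0.05 in HE2 (-0.25 to 0.35) and 0.01 in myeloid progenitors (-0.29 to 0.31). In progenitors it was -0.27 (-0.64 to 0.10; limma, adjusted P = 0.402), with both induced arrays below the uninduced ones, and another bright probe of Cdk4 gave -0.53 there, at an unadjusted P under 0.05. The D-type cyclins were less uniform, and 2 of them are named after their values were seen. Ccnd1 was at 14.24, 12.24 and 12.52 in uninduced HE and at 12.45, 10.88 and 10.92 in induced HE, a log2 change of -1.58 ± 0.67 that did not pass (adjusted P = 0.129). Its arrays spread widely and the groups overlapped. Ccnd2 was at 11.26 and 11.16 in uninduced progenitors and at 12.28 and 12.19 in induced ones, a log2 change of 1.03 ± 0.55 (adjusted P = 0.307).

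**Figure D3:**
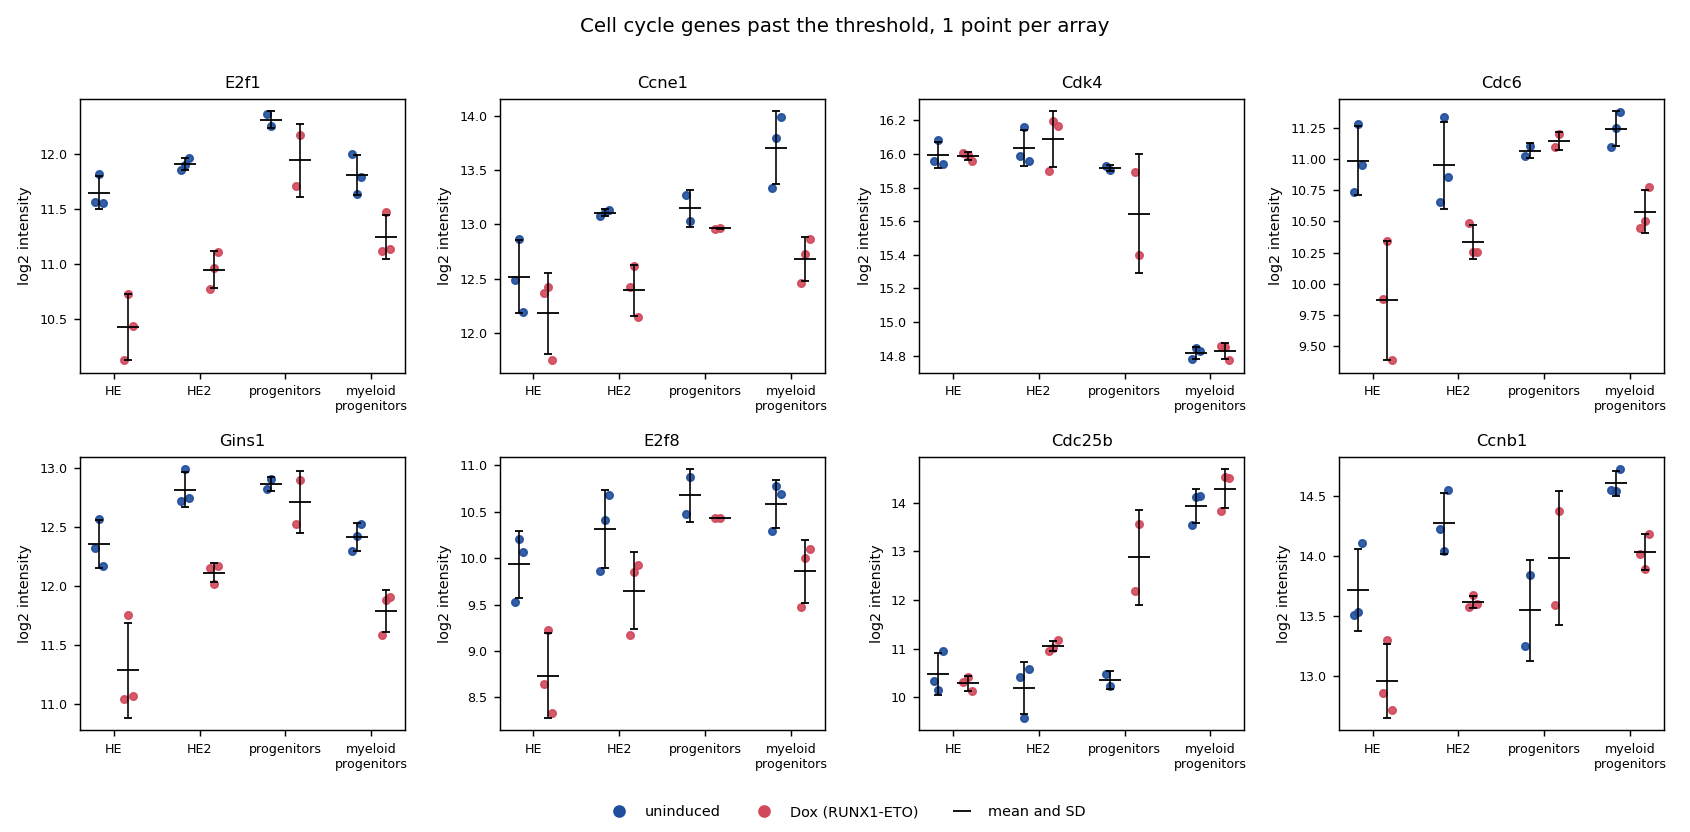
Log2 intensity on each array of E2f1, Ccne1, Cdk4, Cdc6, Gins1, E2f8, Cdc25b and Ccnb1 (1 point per array), with the mean and SD of each group, by stage and by Dox. E2f1, Cdc6, Gins1 and E2f8 lay lower on all induced HE arrays than on the uninduced ones, Cdc25b rose in induced progenitors, and Cdk4 was near 14.8 on the myeloid progenitor arrays alone.

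The S genes that passed the threshold were Cdc6, Gins1 and E2f8, all of them downregulated in HE. Cdc6 loads the MCM helicase onto origins. Its log2 intensity in HE was 10.74, 11.28 and 10.95 without Dox and 9.87, 10.34 and 9.38 with Dox, and in HE2 it was 10.66, 11.34 and 10.85 against 10.49, 10.26 and 10.26. In progenitors it was 11.03 and 11.11 against 11.10 and 11.20, and in myeloid progenitors 11.10, 11.25 and 11.38 against 10.45, 10.51 and 10.77. All induced arrays lay below the uninduced ones except in progenitors. The log2 change was -1.12 ± 0.22 in HE (limma, adjusted P = 0.0016). It was -0.62 in HE2 and -0.67 in myeloid progenitors (adjusted P = 0.0645 and 0.0524), and 0.08 in progenitors (adjusted P = 0.901).

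Gins1, a subunit of the GINS complex of the active helicase, was downregulated at the adjusted P in the same 3 stages as E2f1. Its log2 intensity was 12.33, 12.57 and 12.17 in uninduced HE against 11.04, 11.75 and 11.07, and 12.72, 12.99 and 12.75 in uninduced HE2 against 12.15, 12.02 and 12.17. It was 12.83 and 12.91 against 12.53 and 12.90 in progenitors, and 12.29, 12.43 and 12.53 against 11.59, 11.88 and 11.90 in myeloid progenitors. The groups overlapped in progenitors only. Its log2 change was -1.07 ± 0.19 in HE (adjusted P = 0.000567), -0.71 in HE2 (adjusted P = 0.0135), -0.15 in progenitors (adjusted P = 0.766) and -0.63 in myeloid progenitors (adjusted P = 0.0311).

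E2f8 encodes an atypical E2F factor that represses E2F targets and is itself an E2F target. Its log2 intensity was 9.53, 10.21 and 10.07 in uninduced HE against 8.65, 9.23 and 8.33, and 9.86, 10.41 and 10.68 in uninduced HE2 against 9.17, 9.85 and 9.92. It was 10.48 and 10.88 against 10.43 on both induced arrays in progenitors, and 10.29, 10.78 and 10.696 against 9.47, 10.001 and 10.10 in myeloid progenitors. The groups overlapped in HE2 only. The log2 change was -1.20 ± 0.28 in HE (limma, adjusted P = 0.00613), and the changes of -0.67 in HE2, -0.73 in myeloid progenitors and -0.24 in progenitors did not pass the threshold. All 3 calls in HE were kept without uninduced array 1 or induced array 2, and each was lost without some other array of the stage. Without uninduced HE array 2, Cdc6, Gins1 and E2f8 changed by -0.98, -0.96 and -1.06 and missed the threshold. Without induced HE array 3 the changes were -0.88, -0.96 and -0.996, again below it. Gins1 and E2f8 were also lost without induced array 1, at -0.94 and -1.16, and E2f8 without uninduced array 3, at -1.13.

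The MCM genes encode the subunits of the replicative helicase. In HE, Mcm5, Mcm6 and Mcm7 were downregulated by log2 changes of -0.95, -0.96 and -0.94 (limma, adjusted P = 0.00117, 0.00354 and 0.00239), and Mcm2 and Mcm4 by -0.57 and -0.73 (adjusted P = 0.0469 and 0.0289). Mcm3 had a log2 change of -0.34 with an adjusted P of 0.43. In HE2, Mcm2, Mcm5 and Mcm7 passed, with log2 changes of -0.74, -0.88 and -0.62, and in myeloid progenitors none of the 6 subunits did, with log2 changes between -0.54 and -0.16. Mcm10, which acts when origins fire, was downregulated in HE, HE2 and myeloid progenitors by -0.59, -0.66 and -0.62. The licensing factor Cdt1 was downregulated in HE by -0.98 and in HE2 by -0.77. Cdc45 and Gins2 had mean log2 changes of -0.92 and -1.18 in HE but standard errors of 0.55 and 0.56, and neither passed. Both were among the members that were low on the 3 low arrays named above. Without those arrays Gins2, Bub1b, Cdc25c and Cenpa were called in HE together with E2f1, whereas Cdc6, Gins1 and E2f8 were not. However, Gins2, Bub1b, Cdc25c and Cenpa were themselves among the members by which uninduced HE array 2 was picked as low. Their calls thus follow in part from how the arrays were picked and are no separate support.

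Among the mitotic genes, the cyclins Ccnb1, Ccnb2 and Ccna2 were downregulated in HE. Ccnb1, a B-type cyclin that activates Cdk1 at entry into mitosis, had a log2 intensity of 13.51, 13.53 and 14.11 in uninduced HE and of 12.86, 13.30 and 12.71 in induced HE. In HE2 it was 14.22, 14.04 and 14.55 against 13.57, 13.67 and 13.60, in progenitors 13.25 and 13.84 against 13.59 and 14.37, and in myeloid progenitors 14.54, 14.54 and 14.72 against 14.01, 13.89 and 14.18. The induced arrays lay below the uninduced ones in each stage but progenitors, where the groups overlapped. The log2 change was -0.76 ± 0.23 in HE (limma, adjusted P = 0.0308), -0.65 in HE2 (adjusted P = 0.059), 0.44 in progenitors (adjusted P = 0.409) and -0.57 in myeloid progenitors (adjusted P = 0.115). Ccnb2 was downregulated by -0.89, -0.61 and -0.54 in HE, HE2 and myeloid progenitors (adjusted P = 9.98e-05, 0.00293 and 0.00801). Ccna2, the cyclin of S phase and early mitosis, was downregulated by -0.91, -0.86 and -0.78 (adjusted P = 0.0149, 0.0208 and 0.0414).

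Of the mitotic kinases, Plk1 was downregulated in HE and HE2 by -0.63 and -0.82 (limma, adjusted P = 0.0264 and 0.00502) and Aurka by -0.61 and -0.64. Cdk1, the kinase that the mitotic cyclins activate, had log2 changes of -0.43 and -0.12 in HE and HE2 and passed in no stage. In the spindle checkpoint, Bub1 was downregulated in HE by -0.63 and in myeloid progenitors by -0.80, whereas Bub1b, Bub3, Mad2l1 and Ttk passed in no stage. Cdc20 and Ube2c, an activator and a ubiquitin-conjugating enzyme of the anaphase-promoting complex, were both downregulated in HE2, by -0.46 and -0.78. Cdc20 was in addition the 1 member downregulated in progenitors at the adjusted P, by -0.63 ± 0.18 (adjusted P = 0.0468), and was downregulated in myeloid progenitors by -0.54. Its adjusted P in progenitors passed neither without any 1 of uninduced arrays 1 and 2 and induced array 2 nor with slide, scan date or replicate as a block. The call was also lost with the additional array as replicate 3, with scaling to the 75th percentile and when only the progenitor arrays were fitted. Mki67, the proliferation antigen, and the spindle assembly factor Tpx2 were downregulated in HE and HE2.

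Cdc25b was upregulated with Dox in progenitors. It encodes a phosphatase that activates cyclin-dependent kinases before mitosis. Its log2 intensity was 10.49 and 10.23 on the uninduced and 12.18 and 13.57 on the induced progenitor arrays. Both induced arrays lay above both uninduced arrays, and the log2 change of 2.52 ± 0.40 (95% interval 1.65 to 3.38; limma, adjusted P = 0.000715) was the only call of a member upregulated with Dox. Within slide 1, which held 1 array of each condition, the difference was 1.70, and without induced array 2, which was on slide 3, the change was 1.82 and still past the threshold. Its call was kept in 16 of 17 alternatives and lost when only the progenitor arrays were fitted, at an adjusted P of 0.11. In HE it was 10.33, 10.14 and 10.96 against 10.31, 10.43 and 10.13, and in HE2 10.42, 9.58 and 10.59 against 10.96, 11.02 and 11.17. In myeloid progenitors it was 13.53, 14.11 and 14.14 against 13.82, 14.53 and 14.50. The groups were apart in HE2, where the change was 0.85 ± 0.33 (adjusted P = 0.0853), and overlapped in HE and in myeloid progenitors, where it was -0.19 and 0.36. The progenitors with Dox thus lay between the uninduced progenitors and the myeloid progenitors in their level of Cdc25b, apart from 1 induced array at 13.57 that lay above the lowest uninduced myeloid array at 13.53.

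Further genes of the same pathways were counted from lists that held none of the members. Of all genes tested, 6.62%, 6.76%, 4.3% and 1.48% were downregulated at the adjusted P in HE, HE2, myeloid progenitors and progenitors. In the same order, 9.03%, 10.4%, 9.49% and 4.05% were upregulated. No list was tested against these shares. Of 38 other S genes tested, which include nucleotide synthesis enzymes and DNA polymerases, 11 were downregulated in HE at the adjusted P, 8 in HE2, 9 in myeloid progenitors and 0 in progenitors, with median log2 changes of -0.63, -0.50, -0.51 and -0.03. Tk1, the thymidine kinase of S phase, passed the threshold in HE and HE2 with log2 changes of -1.41 ± 0.19 and -1.21 ± 0.19 (limma, adjusted P = 3.78e-05 and 0.000208). Of 38 other mitotic genes, 14, 11, 4 and 0 were downregulated in the same order of stages, with medians of -0.59, -0.47, -0.52 and -0.03. Spc24, a kinetochore protein, and Espl1, the separase that cleaves cohesin, passed in HE2 with -1.16 ± 0.22 and -1.54 ± 0.37. Of 18 other G1 genes, 3 were downregulated and 1 upregulated in HE, 1 and 1 in HE2, 0 and 1 in progenitors, and 0 in myeloid progenitors. Rb1, the retinoblastoma gene that restrains E2F, was upregulated past the threshold in HE2 with a log2 change of 1.39 ± 0.14 (adjusted P = 2.32e-06), and at the adjusted P in HE and progenitors with 0.55 and 0.99. Of 7 inhibitors of cyclin-dependent kinases, Cdkn2b was upregulated past the threshold in myeloid progenitors, with 1.38 ± 0.34 (adjusted P = 0.0105), and Cdkn2d was downregulated at the adjusted P in HE, with -0.88 ± 0.20.

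Along the uninduced stages the cell cycle genes moved little from HE to HE2 and to progenitors. From HE to HE2, 45 of 50 members were higher, with a median log2 change of 0.28, but 0 passed the threshold, against 5.07% of all genes. At the adjusted P, E2f2 and Mcm10 were upregulated, by 0.85 and 0.62, against 4.76% of all genes. At an unadjusted P under 0.05 there were 9 members, against 3409 of the 15202 genes tested. Each of the 2 calls at the adjusted P was lost without uninduced HE array 3 or uninduced HE2 array 3. From HE2 to progenitors 0 members passed the threshold, against 5.39% of all genes, and 0 passed the adjusted P, against 8.18%. Under an unadjusted P of 0.05 there were 4 members, against 2765 of the 15202 genes tested. The 4 members were Cdk6 and Mcm5, which were higher, and Ccnb1 and Cenpe, which were lower. Cdk6 was dim, at 6.14 and 6.89 in uninduced progenitors, where its highest value on any array lay. It may have reached the 6.5 needed for testing only there, so its rise is no support for a change. The stage steps use the same arrays as the comparisons with Dox and are not independent of them.

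From uninduced progenitors to myeloid progenitors, 3 members passed the threshold, against 13.9% of all genes. Cdc25b rose by 3.56 ± 0.37 on the log2 scale (limma, adjusted P = 1.33e-06), Ccnb1 rose by 1.06 ± 0.26 (adjusted P = 0.0044), and Cdk4 changed by -1.10 ± 0.16 (adjusted P = 4.39e-05). At the adjusted P, 5 members were upregulated, among them Ccnd2 by 1.75, E2f2 by 0.67 and Mki67 by 0.59, and 8 were downregulated, among them Cdc20 by -0.97, Mcm7 by -0.88 and Ube2c by -0.84, against 13.9% and 19.2% of all genes. The myeloid progenitor arrays were all on slide 3 and the 2 fitted arrays of uninduced progenitors were on slides 1 and 2, so that the slide is largely bound up with this step. The additional array of uninduced progenitors was on slide 3, and on it Cdk4 was at 15.68, Cdc25b at 10.93 and Ccnb1 at 14.10. For all 3 genes these values lay between those of the fitted uninduced progenitors and those of the uninduced myeloid progenitors. The fitted uninduced progenitors had Ccnb1 at 13.25 and 13.84. With the additional array as uninduced progenitor replicate 3, Ccnb1 changed by 0.87 and was no longer called. Of the other members named for this step, Ube2c was at 13.44 on the additional array, against 14.42 and 14.61 on the fitted uninduced progenitors. Cdc20 at 15.39 and Mcm7 at 15.67 also lay below the fitted arrays, and Ccnd2 at 11.37 and E2f2 at 13.21 lay above them. These differences had the direction of the step, whereas Mki67 at 15.085 lay below the fitted arrays, against its direction. With slide as a block, the changes of Cdc25b, Cdk4 and Ccnb1 kept their direction, and Cdk4 and Ccnb1 at -0.59 and 0.45 were no longer called. The call of Ccnb1 was also lost without uninduced progenitor array 1, at 0.76, and without any 1 of the myeloid progenitor arrays, at 1.08, 1.09 and 1.00. The number of members past the adjusted P, 13 in all, was 4 without uninduced progenitor array 1, 6 without array 2 and 7 without uninduced myeloid progenitor array 2, and it was 1 with either slide or scan date as a block.

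**Figure D4:**
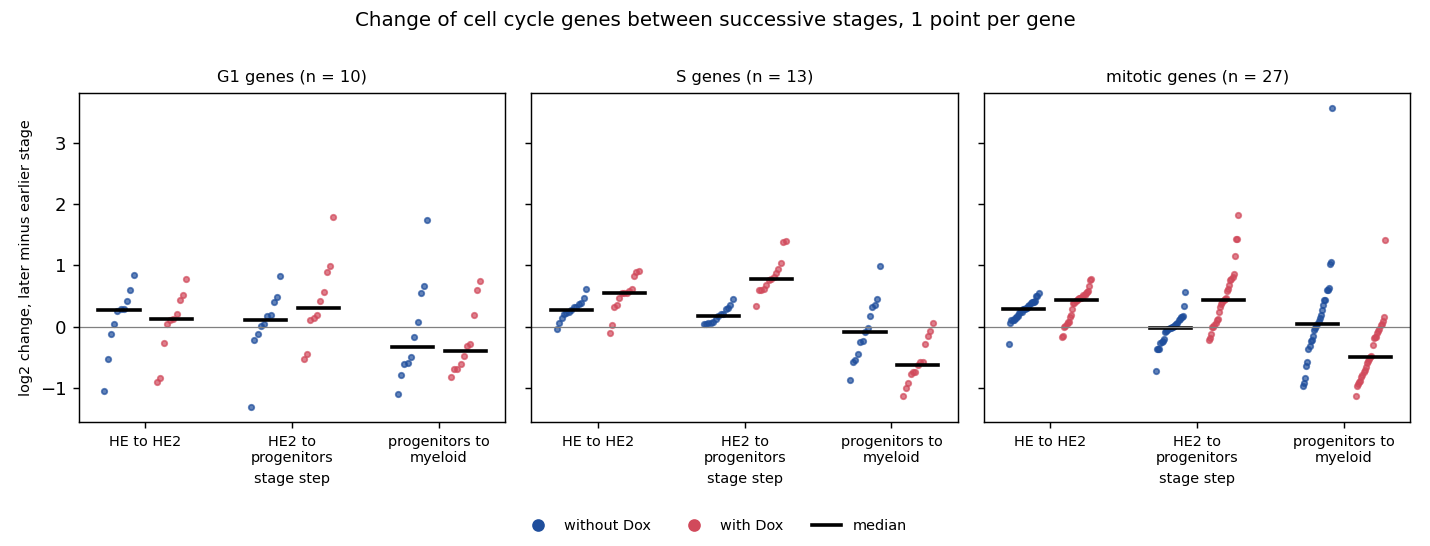
Log2 change of the G1, S and mitotic genes between successive stages (later minus earlier, 1 point per gene), without and with Dox, with the median of each group. The S genes had a median change of 0.17 from HE2 to progenitors without Dox and of 0.78 with Dox, and of -0.09 and -0.63 from progenitors to myeloid progenitors.

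In induced cells the median change of the members from HE to HE2 was 0.44, which became 0.28 without induced HE array 3, and the median of the G1 genes was 0.12 against 0.27 in uninduced cells. In this step 0 members passed the threshold against 3.1% of all genes, and 4 members (E2f2, Mcm6, Mcm10 and Gins1) were upregulated at the adjusted P, against 3.1% of all genes. That number was 0 without induced HE array 3, 1 without induced HE array 1 or induced HE2 array 2, 2 without induced HE2 array 3 and 12 without induced HE array 2. From HE2 to progenitors the median change was 0.59, Mcm2 and Cdc25b passed the threshold with 1.04 ± 0.21 and 1.82 ± 0.37, against 7.36% of all genes, and 12 members were upregulated at the adjusted P, against 4.38%. Among the 12 were E2f1 by 0.99, Ccnd2 by 1.79, Mcm5 by 0.95 and Mki67 by 0.78. Without induced progenitor array 2, 5 were upregulated and 1 was downregulated, Mcm2 changed by 0.76 and Cdc25b by 1.13, and both were below the threshold. Mcm2 was also below it without induced HE2 array 3, at 0.92. From progenitors to myeloid progenitors the median change was -0.54. Mcm7 alone passed the threshold with -1.13 ± 0.22, against 7.37% of all genes, and 15 members were downregulated and 1 upregulated at the adjusted P, against 8.86% and 9.34%. Without induced progenitor array 1, Mcm7 changed by -0.88 and was below the threshold, and 8 members were downregulated at the adjusted P.

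Whether the response to Dox differed between stages was tested as an interaction. Between HE and HE2, between HE2 and progenitors, and between HE and myeloid progenitors, 0 members passed the threshold, against 1.34%, 0.645% and 4.72% of all genes, and 0 members passed the adjusted P in limma. At an unadjusted P under 0.05 there was 1 member between HE and HE2, 9 between HE2 and progenitors and 3 between HE and myeloid progenitors. Of the 15202 genes tested, 1311, 1232 and 2477 were under that limit in the same order. Between HE2 and progenitors the difference was positive, that is less negative in progenitors, for 46 of 50 members, with a median of 0.50. The largest of the 9 were Cdc25b with 1.66 ± 0.52 (adjusted P = 0.284) and Ccnb1 with 1.09 ± 0.36 (adjusted P = 0.349). Between HE and myeloid progenitors E2f1 had a difference of 0.65 ± 0.25 (95% interval 0.11 to 1.19, adjusted P = 0.163) and Ccne1 of -0.68 ± 0.31 (adjusted P = 0.262). Without induced progenitor array 1, 2 members passed the adjusted P between HE2 and progenitors. The other pairs of stages were not tested.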

How the data were processed

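RNA of 4 stages with and without Dox was hybridised in 1 colour to 23 arrays of the Agilent SurePrint G3 Mouse design, spread over 3 slides. Per the file headers, the authors deposited spot intensities that Feature Extraction 10.7.3.1 had read from the scanned images, beside flags and each spot's background, not normalized across arrays, whereas the submitters' processing notes name version 10.7.1.1. A table of log2 values, which the authors had background corrected and quantile normalized, served as an alternative. No column of values was without an array (0 left out).

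From the median spot intensities, normexp with an offset of 16 removed the background, the 3671 control spots were removed, the 59305 other spots were quantile normalized and log2 transformed, and spots of a probe were averaged, in limma 3.58.1 (R 4.3.3). Quantile normalization makes all changes relative to the other genes of an array. Of 55681 probes 26582 matched a gene symbol through their RefSeq accession, and the probe with the highest mean stood for its gene. The 15202 genes that reached 6.5 on the log2 scale on 1 or more arrays went into lmFit and eBayes on 22 arrays in 8 groups (14 residual degrees of freedom). The threshold was a P of at most 0.001 with at least a 2-fold change, and Benjamini-Hochberg adjusted P-values over all genes tested were used beside it. The number of arrays limits the precision, with standard errors of 0.127 to 0.666 for members in the Dox comparisons of HE, HE2 and myeloid progenitors and up to 0.816 in progenitors.

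The members and all lists were chosen with earlier results of these data known. Values on every array were given for up to 4 members of each gene group with the largest changes among those past the threshold with Dox or between uninduced stages. Of other probes for 13 members, 17 were well above background on all arrays, and 16, 15, 10 and 15 of them had the sign of the probe used in HE, HE2, progenitors and myeloid progenitors. The labels call the arrays biological replicates without naming separate cultures, so P-values measure the spread between these samples. The title of the additional array names it a technical replicate and another label replicate 3, and induced myeloid progenitor array 3 is called both biological and technical. The main fit did not pair the arrays. For HE against HE2 without Dox the deviations of same-numbered arrays correlated at 0.39, 0.79 and 0.61. With 2 pairs each, they correlated at 0.23 and 0.23 for Dox in progenitors. For HE2 against progenitors they correlated at 0.38 and 0.20 without Dox and at 0.16 and 0.12 with Dox. Negative correlations occurred in every other comparison. The alternatives were other background corrections, scalings, filters, probe rules, thresholds and fits, blocks for slide, scan date and replicate, and leaving out each array.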

Additional observations from a re-analysis of the deposited data

How the results depend on the processing

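The direction of the 12 calls of members past the threshold was kept in every alternative run, with E2f1 in HE past it throughout and Cdc25b in progenitors with Dox in 16 of 17. The number of members past the threshold depended on the setting. With scaling to the 75th percentile, which moved the median of all genes to -0.22 in progenitors and to -0.12 in myeloid progenitors with Dox, it was 7 for Dox in HE and 3 in HE2, and 6 from progenitors to myeloid progenitors without Dox. With Dox it was 1 from HE2 to progenitors and 4 from progenitors to myeloid progenitors under that scaling. Normalizing the early stages and the myeloid progenitors apart, or taking the mean of the probes of a gene, left 0 for Dox in myeloid progenitors. At an adjusted P of at most 0.05 with no limit on the change it was 22 for Dox in HE, 16 in HE2, 10 in myeloid progenitors and 2 in progenitors. By that rule the uninduced steps gave 2 from HE to HE2 and 13 from progenitors to myeloid progenitors, and the induced steps gave 4, 12 and 16. With a 2-fold change alone it was 8 for Dox in HE, 3 in HE2 and 2 in progenitors. The uninduced steps then gave 1, 1 and 5, the induced steps from HE2 to progenitors and on to myeloid progenitors gave 8 and 3, and the interactions gave 1 between HE and HE2, 8 between HE2 and progenitors and 1 between HE and myeloid progenitors. When only the groups compared were fitted, 1 was left for Dox in HE and 0 in progenitors and in myeloid progenitors, and 0 for the induced steps from HE2 to progenitors and on to myeloid progenitors. Fewer arrays share the estimate of the spread in that fit. At the adjusted P the same fit gave 4 members downregulated with Dox in HE and 6 in HE2, and 33 downregulated and 1 upregulated in myeloid progenitors. With slide as a block it was 1 from progenitors to myeloid progenitors without Dox, and 1 and 2 for the induced steps from HE2 to progenitors and on to myeloid progenitors. With scan date as a block it was 0 and 2 from progenitors to myeloid progenitors without and with Dox. Without the 3 low arrays, an alternative chosen after seeing the data, it was 1 for Dox in HE2 and 1 from HE to HE2 with Dox. Leaving out each array gave 1 to 8 for Dox in HE, 0 to 1 in HE2, 0 to 1 in myeloid progenitors and 1 to 2 in progenitors. Dox in HE gave 1 without uninduced array 2 and 8 without induced array 2, and in myeloid progenitors 0 without uninduced array 2 or 3 or induced array 1. For the induced steps it gave 0 to 3, 2 to 5 and 1 to 8, for the uninduced step from progenitors to myeloid progenitors 2 to 4, and for the interaction of HE2 and progenitors 0 to 1. The highest of these were 3 from HE to HE2 without induced HE array 2, 5 from HE2 to progenitors and 1 for the interaction without induced progenitor array 1, and 8 from progenitors to myeloid progenitors without induced progenitor array 2. Causes were not tested. With the replicate number as a block, the uninduced step from HE to HE2 kept 0 members past the threshold and 2 at the adjusted P, and no count past the threshold moved by more than 1.5 times. The correlations of same-numbered arrays were positive in all pairs only for this step, for Dox in progenitors and for the steps from HE2 to progenitors. At the adjusted P the block left 1 member instead of 2 for Dox in progenitors. Medians changed sign only for S and mitotic genes with Dox in progenitors (8 and 1 of 17 settings), for mitotic genes from HE2 to progenitors without Dox (2 of 19) and for S and mitotic genes from progenitors to myeloid progenitors without Dox (1 and 4 of 17).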

Other observations

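The additional array of uninduced progenitors, which entered no comparison, lay within the range of the 2 fitted uninduced progenitor arrays for 12 of 50 members, above it for 21 and below it for 17. The median distance of a member from the mean of these arrays was 0.28 on the log2 scale, and the largest was 1.07, for Ube2c. Of the members past the threshold with Dox in another stage, E2f1 was at 12.65 on it, Ccne1 at 13.15, Cdc6 at 11.29, Gins1 at 12.92 and E2f8 at 10.79.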
